A study of Homo sapiens with 6 samples.

Results

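The chemokine genes CXCL8, CXCL1, CXCL3 and CCL20 were followed in HaCaT, a human keratinocyte line that was immortalised in culture, with and without the M1 protein of Streptococcus pyogenes. They are 4 of the 497 probe sets that carry a gene name here and of the 22119 probe sets measured. They were chosen by symbol from the authors' deposited table, which lists probe sets that differed between the groups on these same arrays, so their values are given as a description and support no claim of a change. All groups came from this cell line, grown free of serum and calcium to 80% confluency. The control group was left untreated, and the M1 group received 5 µg/ml of M1 protein, which coats the surface of this bacterium and serves its virulence, for 6 h before RNA was extracted. Each group had 3 samples, which the labels call biological replicates, chosen among 12 once RNA integrity had been checked, and measured on Affymetrix Human 2.0 ST arrays. Whether the replicates came from separate days is not stated. The single cell line, a single dose and a single time limit the model. The deposited values are log2 RMA signals, where 1 unit is a doubling, and the median signal of an array lay between 6.99 and 7.01 for controls and between 6.93 and 6.96 for M1 samples. The keratinocyte label could not be checked, since the named set holds only probe sets that differed between the groups. Of 8 keratinocyte markers KRT17 and LAMB3 were in it. It held 0 of 8 leukocyte, 0 of 7 fibroblast, 0 of 5 endothelial and 0 of 5 melanocyte markers. Neither presence nor absence there shows which cell type was cultured.

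Chemokines are small secreted proteins that bind G protein-coupled receptors on white blood cells and direct their movement along a gradient. CXCL8 (interleukin-8, listed as IL8 by the authors), CXCL1 and CXCL3 act on the receptor CXCR2, CXCL8 also on CXCR1, and mainly draw neutrophils. CCL20 acts on CCR6 and draws memory and Th17 lymphocytes and immature dendritic cells. Keratinocytes make these chemokines when microbial products, interleukin-1 or tissue damage activate NF-kappaB and AP-1.

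The start regions of the genes are shown first, because NF-kappaB binding near the start is well known for this gene group and because the sequences show how alike CXCL1 and CXCL3 are. The windows are RefSeq sequences of build GRCh38.p14, from 250 bases before to 50 bases after the annotated start, read 5′ to 3′ on the gene's strand, and all 4 genes matched by symbol. Capitals mark each match to GGAANNNCC on either strand, a kappaB-type motif. CXCL8 lies at chr4:73740319-73740618 (plus strand), CXCL1 at chr4:73869143-73869442 (plus strand), CXCL3 at chr4:74038640-74038939 (minus strand) and CCL20 at chr2:227813592-227813891 (plus strand).
CXCL8: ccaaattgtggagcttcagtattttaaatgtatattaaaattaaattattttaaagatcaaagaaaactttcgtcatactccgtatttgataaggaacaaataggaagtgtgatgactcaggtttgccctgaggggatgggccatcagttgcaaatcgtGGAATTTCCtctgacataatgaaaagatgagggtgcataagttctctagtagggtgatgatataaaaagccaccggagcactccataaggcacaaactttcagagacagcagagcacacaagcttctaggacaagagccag
CXCL1: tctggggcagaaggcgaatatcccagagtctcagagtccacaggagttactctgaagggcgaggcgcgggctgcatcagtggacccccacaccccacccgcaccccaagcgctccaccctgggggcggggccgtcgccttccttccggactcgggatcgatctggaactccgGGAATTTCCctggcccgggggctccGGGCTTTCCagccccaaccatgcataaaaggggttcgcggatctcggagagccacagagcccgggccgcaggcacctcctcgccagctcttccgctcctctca
CXCL3: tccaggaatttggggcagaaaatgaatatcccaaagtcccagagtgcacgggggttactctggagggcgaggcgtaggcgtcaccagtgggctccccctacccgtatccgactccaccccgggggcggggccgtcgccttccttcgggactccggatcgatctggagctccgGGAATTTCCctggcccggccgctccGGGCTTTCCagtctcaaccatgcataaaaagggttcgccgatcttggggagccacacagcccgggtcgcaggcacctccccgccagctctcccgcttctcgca
CCL20: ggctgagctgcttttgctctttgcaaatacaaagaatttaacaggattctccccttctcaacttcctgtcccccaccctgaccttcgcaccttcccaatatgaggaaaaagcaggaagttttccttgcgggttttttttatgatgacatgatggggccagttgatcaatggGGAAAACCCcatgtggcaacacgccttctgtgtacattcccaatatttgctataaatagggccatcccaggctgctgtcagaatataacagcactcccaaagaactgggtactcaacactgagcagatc

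All 4 windows held a kappaB-type match, which 20.1% of 35116 RefSeq windows (of 27305 genes) also hold. In CXCL8 it was GGAATTTCC, 91 to 83 bases before the start. CXCL1 and CXCL3 held the same GGAATTTCC 78 to 70 bases before the start, and a second match, GGGCTTTCC, 53 to 45 bases before it. The match in CCL20 was GGAAAACCC, 79 to 71 bases before the start. Each gene thus had a match between 91 and 70 bases before the start, where 1.19% of all windows hold one; these bounds were set after the positions were seen. GGAATTTCC was the longest run shared by the windows of CXCL8, CXCL1 and CXCL3, at 9 bases. That run, also searched on both strands after the sequences were read, occurs in 0.461% of all windows and is contained in the kappaB-type motif.

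Exact matches to the other motifs separated the genes. TGANTCA, an AP-1 motif, occurred in CXCL8 alone, 137 to 131 bases before the start, and is held by 7.71% of all windows. TATAAA, the TATA box, occurred in CXCL8 from 31 to 26 and in CCL20 from 29 to 24 bases before the start, against 11.5% of all windows. These exact letters were not in the windows of CXCL1 and CXCL3. Both hold CATAAA instead, which differs in its first base and lies as far from the start as TATAAA in CXCL8. TTGCNNAA, a C/EBP-type motif held by 10.5% of all windows, had 0 exact matches in the 4 genes. The windows of CXCL8 and CCL20 do hold TTGCAAAT, which misses this pattern in its last base only. The count therefore does not show that such a site is absent. Each motif was searched on both strands, and a match describes the sequence and shows no binding. The plot of motif matches sets the positions side by side.

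**Figure D1:**
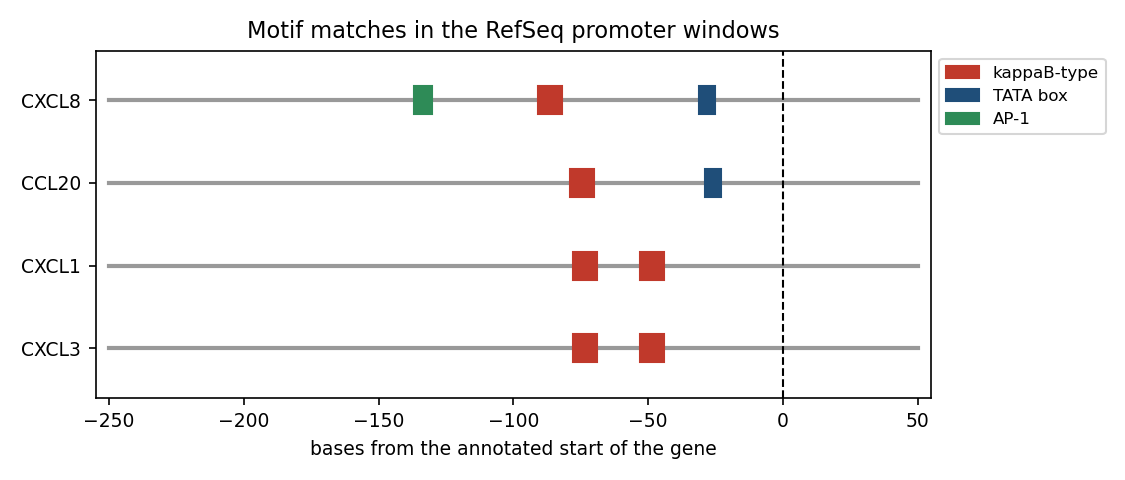
Matches to the kappaB-type, AP-1 and TATA motifs in the windows of the 4 genes; the x axis is the distance in bases from the annotated start (dashed line), with negative values before it, and each box is 1 match. CXCL1 and CXCL3 have the same layout of 2 kappaB-type matches, and CXCL8 and CCL20 have an exact match to TATAAA.

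CXCL1 and CXCL3 were close in this region, with 254 of 292 aligned bases identical (87%, 16 gap bases) and a longest shared run of 25 bases. The other pairs of windows had 54.1% to 60.9% of aligned bases identical and shared runs of 8 or 9 bases. The windows of CXCL1 and CXCL3 were also rich in G and C, at 66.3% and 64.3%, against 39.3% in CXCL8 and 46.3% in CCL20. Their transcripts are known to be alike as well. In the authors' deposited table, 0 of 497 probe sets had True as their cross-hybridisation entry, the only entry that was counted. Whether another entry marks CXCL1 or CXCL3 was not checked. How far their probe sets share signal was not tested.

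The neutrophil-attracting chemokines were led by CXCL8. Its log2 signal was 7.08, 7.57 and 7.28 in control replicates 1 to 3 and 12.45, 12.48 and 12.14 in M1 replicates 1 to 3. Every M1 array lay far above every control array, and the smallest difference between any M1 and any control array was 4.57, or 23.8-fold. The mean difference was 5.05 ± 0.14 (SE) on the log2 scale, a 33.1-fold higher signal. The largest difference between any pair of arrays was 5.40, or 42.1-fold.

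CXCL1, first known as a melanoma growth factor and a strong attractant of neutrophils, had control signals of 4.95, 5.40 and 5.59. With M1 protein its log2 signals were 8.83, 8.80 and 8.31. The groups did not overlap, but both were wide, with SDs of 0.33 in control and 0.29 with M1 protein (n = 3 each). The mean difference was 3.33 ± 0.20 (SE) on the log2 scale, or 10.1-fold, with pairs of arrays from 6.59-fold to 14.7-fold.

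CXCL3, the close relative of CXCL1 and also a ligand of CXCR2, showed the smallest difference of the group. Its log2 signals were 4.99, 5.21 and 5.20 in control and 6.55, 6.80 and 6.54 with M1 protein. Its groups did not overlap either, with means of 5.13 ± 0.12 and 6.63 ± 0.14 (SD, n = 3 each). The mean difference was 1.50 ± 0.10 (SE) on the log2 scale, or 2.83-fold, with pairs of arrays from 2.52-fold to 3.49-fold.

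CCL20, the lymphocyte and dendritic cell attractant, had log2 signals of 4.23, 4.48 and 4.59 in control. With M1 protein they were 8.92, 8.92 and 8.43. All M1 arrays were above all control arrays by at least 3.84, or 14.3-fold. The mean difference was 4.33 ± 0.15 (SE) on the log2 scale, or 20.1-fold, and the most distant pair of arrays differed 25.9-fold.

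**Figure D2:**
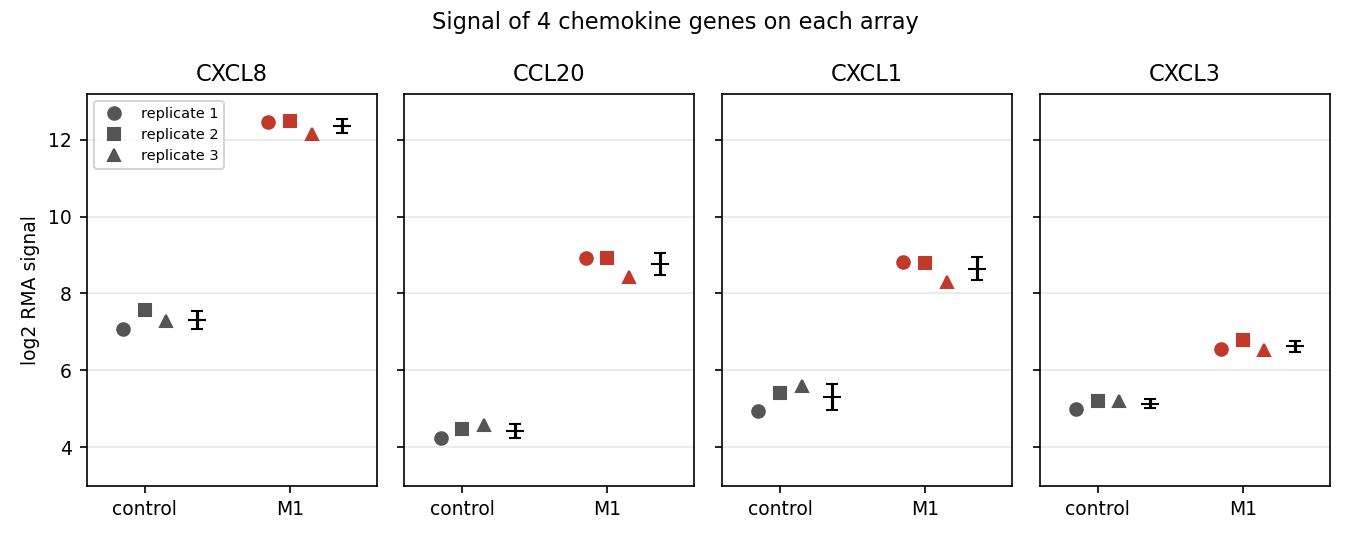
Log2 RMA signal (y axis) of CXCL8, CCL20, CXCL1 and CXCL3 on the 3 control and 3 M1 arrays, with 1 symbol per replicate and the mean ± SD beside each group. The groups do not overlap in any of the 4 genes, and the gap is widest for CXCL8 and narrowest for CXCL3.

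As measured, the size of the difference decreased in the order CXCL8, CCL20, CXCL1, CXCL3. Between neighbours in this order the difference of CXCL8 exceeded that of CCL20 by 0.72 ± 0.13 (SE between arrays) on the log2 scale, that of CCL20 exceeded that of CXCL1 by 0.99 ± 0.08, and that of CXCL1 exceeded that of CXCL3 by 1.83 ± 0.19. Taken over single pairs of arrays, the ranges of neighbours overlapped slightly at the top of the order. The smallest pair difference of CXCL8 (4.57) lay just below the largest of CCL20 (4.69). The smallest of CCL20 (3.84) lay just below the largest of CXCL1 (3.88). The ranges of CXCL1 and CXCL3 stayed apart, at 2.72 and 1.80. When each gene was set against its neighbour on the same array, the gap between the genes did not overlap between groups for any of these pairs. The order was taken from these same arrays, so this describes them and is no separate support for it. These sizes, their order and the ranks by size are those of RMA signals. The control signals of CXCL1, CXCL3 and CCL20 were below the 25th percentile of their array (5.71 to 5.72) on 3 of 3 control arrays each, where RMA values are compressed, while CXCL8 was above it on all arrays. The folds of these 3 genes may therefore be understated, CCL20 may equal or exceed CXCL8, and the gap between CXCL1 and CXCL3 is uncertain.

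Among all 22119 probe sets ordered by log2 difference, CXCL8 had rank 1, CCL20 rank 2, CXCL1 rank 7 and CXCL3 rank 134. In the authors' deposited table, CXCL8 had a fold change of 32.9 and a SAM score, a ratio of the difference to its damped spread, of 5.97. The authors' deposited table gave folds of 20.2 for CCL20, 10.0 for CXCL1 and 2.83 for CXCL3, and placed them at ranks 3, 20 and 118 by score, with CXCL8 at rank 1. The smallest fold of a higher probe set in the authors' deposited table was 1.65. In the limma fit across all probe sets, 4 of 4 genes passed a Benjamini-Hochberg adjusted p of 0.05, where 32.8% of all probe sets passed in either direction and 11.6% passed as higher with M1 protein. The M1 arrays were all above the control arrays in 4 of 4 genes and in 18.6% of all probe sets. Since the genes were taken from a table selected on this contrast, these counts are given without further reading. Over all probe sets 2555 were called higher and 4690 (21.2%) lower; with each array centred on its median these were 3578 and 3670.

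**Figure D3:**
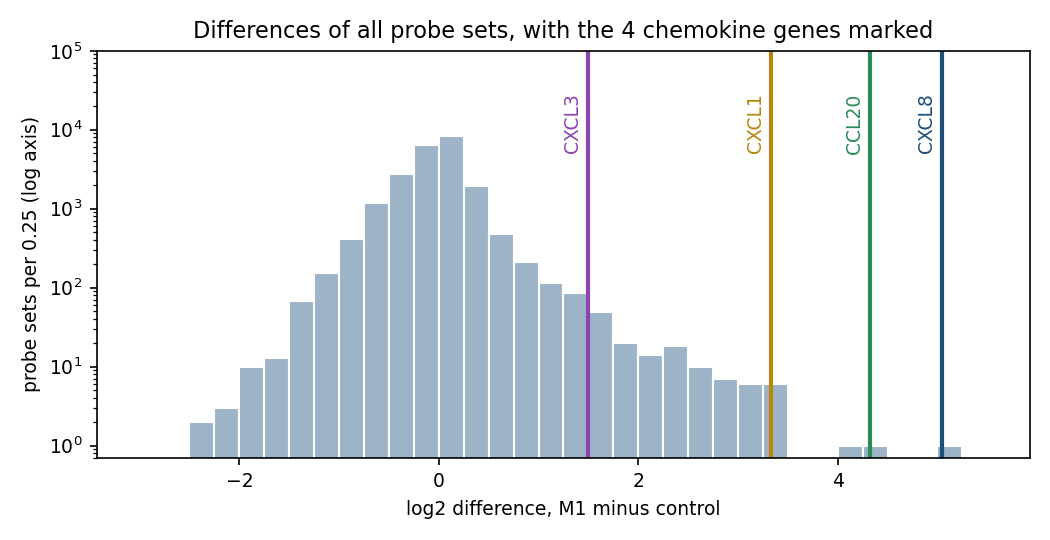
Number of probe sets (y axis, log scale) by log2 difference between M1 and control means (x axis, bins of 0.25 units), over all 22119 probe sets; lines mark the 4 chemokine genes. CXCL8 and CCL20 lie to the right of all other probe sets, CXCL1 lies in the far tail and CXCL3 at 1.50 on the shoulder.

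The signals come from RNA of whole cultures, so more cells making a transcript and more RNA per cell cannot be told apart.

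In each group, the same array was the lowest for all 4 genes. Control replicate 2 and M1 replicate 2 lay above their group mean for all 4. So did control replicate 3 except for CXCL8, and M1 replicate 1 except for CXCL3. Control replicate 1 was the lowest control array for all 4, with deviations from the group mean of -0.23 for CXCL8, -0.37 for CXCL1, -0.14 for CXCL3 and -0.20 for CCL20 on the log2 scale. M1 replicate 3 was the lowest M1 array for all 4, with deviations of -0.22, -0.33, -0.09 and -0.33 in the same order. For CXCL3 that margin was thin, since M1 replicate 1 was at -0.08. CXCL1 and CCL20, which lie on different chromosomes, deviated most alike: on the 6 arrays their deviations differed by at most 0.16. Control replicate 1 was also the lowest control array in 37.5% of all probe sets and in 51.5% of the 334 probe sets (1.51% of all) that were called and over 2-fold higher. M1 replicate 3 was the lowest M1 array in 30.3% of all probe sets and in 53.6% of those 334. Both held together in 11.5% of all and in 26.0% of the 334. The pattern therefore also occurred in many other strongly higher probe sets, and what moved these arrays was not tested.

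**Figure D4:**
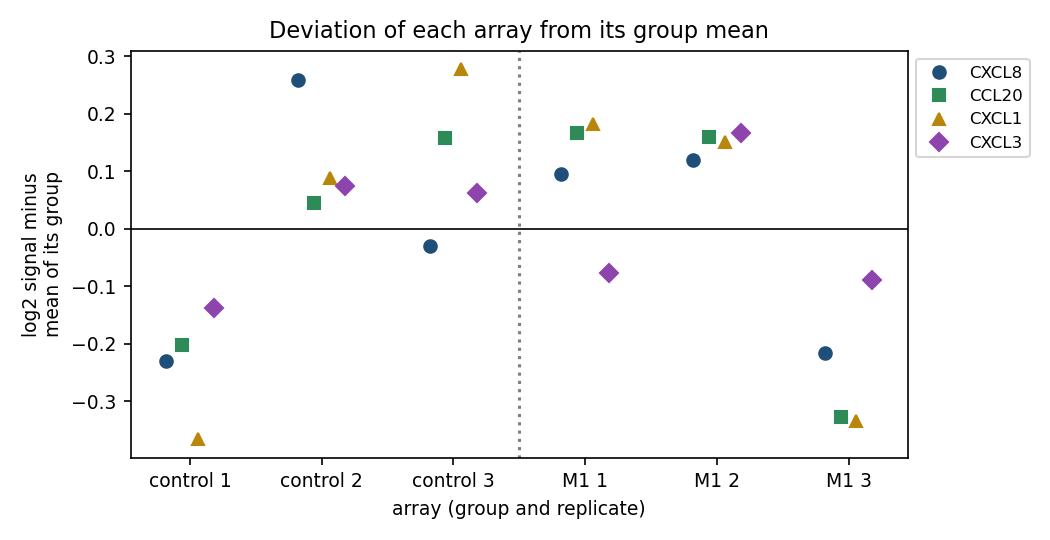
Deviation of each array's log2 signal from the mean of its own group (y axis) for the 4 genes, over the 6 arrays (x axis). All 4 genes lie below 0 on control replicate 1 and on M1 replicate 3, and CXCL1 and CCL20 stay close to each other on every array.

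The spread within groups was larger than usual for CXCL1, CCL20 and CXCL8, set against all probe sets whatever their signal level. The pooled SD was 0.31 for CXCL1, larger than in 97.7% of all probe sets, 0.24 for CCL20 (93.4%) and 0.22 for CXCL8 (91.2%). CXCL3, at 0.13, was nearer the middle (66.4%). The difference between groups was 10.7 times the pooled SD for CXCL1, 11.3 times for CXCL3, 18.1 times for CCL20 and 23.1 times for CXCL8.

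Likeness to other named genes was measured over the 6 arrays as the root mean square distance between profiles, each taken relative to its control mean on the log2 scale. The distance follows mainly the gap between the log2 differences, so the nearest genes are those of a similar fold. CXCL8 had no near match, and its nearest genes were CCL20 at 0.53, the hyaluronan synthase gene HAS2 at 0.66 and the metalloprotease gene ADAMTS1 at 1.13. CCL20 was nearest to HAS2, at 0.27, whose own difference was 4.16 ± 0.12 (SE) on the log2 scale. CXCL1 was nearest to CCN2, which encodes a matricellular protein, at 0.16, then to ADAMTS1 at 0.20 and TNFAIP3 at 0.22. CXCL3 had the closest partners, namely the transcriptional co-regulator gene CITED2 at 0.05, the kinase gene PIM1 at 0.07 and the transcription factor gene MEF2D at 0.08.

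The genes of CXCL8, CXCL1 and CXCL3 are neighbours on chromosome 4. The authors' deposited table places CXCL8 at 74606223 to 74609433 and CXCL1 at 74735109 to 74736959 on the plus strand, and CXCL3 at 74901863 to 74904524 on the minus strand. Which build these coordinates follow is not stated. The gaps were 125.7 kb between CXCL8 and CXCL1 and 164.9 kb between CXCL1 and CXCL3. In the gene order of RefSeq assembly GRCh38.p14, 8 protein-coding genes run from CXCL8 to CXCL3, of which these 3 were in the authors' table, while CXCL6, PF4V1, PF4, PPBP and CXCL5, also chemokine genes, carry no named probe set here. Within 1 Mb of CXCL8, the table held 4 further genes, all higher, where 19 of its 25 genes on chromosome 4 and 302 of its 495 genes in all were higher. They were CXCL1 and CXCL3 themselves and the EGF receptor ligand genes EREG (2.16 ± 0.08 SE on the log2 scale) and AREG (1.35 ± 0.08 SE). The counts for chromosome 4 and for the whole table include CXCL8 and these 4 genes. CCL20 lies apart on chromosome 2, from 228678558 to 228682280 on the plus strand, and 0 other genes of the table lay within 1 Mb of it, although the table held 39 genes on that chromosome, CCL20 among them.

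The authors' annotation gave all 4 genes the terms chemotaxis, inflammatory response, immune response and chemokine activity. Chemokine activity was held by these 4 genes alone among 495 genes of the table. Chemotaxis was held by 8 genes, 7 higher and 1 lower. Beside the chemokines these were the urokinase gene PLAU (log2 difference 0.77 ± 0.08 SE), its receptor gene PLAUR (1.19 ± 0.06 SE), the growth factor gene FGF2 (1.02 ± 0.09 SE) and the lower MAPK14, which encodes the kinase p38 alpha (-0.74 ± 0.05 SE). The inflammatory response term covered 14 genes, 13 higher and 1 lower, and the immune response term 13 genes, all higher. CXCL8 and CCL20 had the largest log2 differences in both terms. These terms were looked up after the values were seen.

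Of 44 human chemokine genes, the table held 4 and all 4 were higher, with a median log2 difference of 3.83. These are the 4 genes followed here, chosen with this contrast known, so their count and median add no evidence. The median was 0.0032 over all probe sets and 0.86 over all 495 genes of the table, 302 of them higher and 193 lower. As the 0.86 includes the lower genes, it is no like baseline for a list of higher genes only. Of 23 chemokine receptor genes, 0 were in the table, CXCR1, CXCR2 and CCR6 among them, which does not show that they were unchanged, since unselected probe sets carry no name here. The members of the remaining lists had also been selected by the authors on these arrays, so their counts and directions are not independent evidence. The background is that the table held 2.25% of all probe sets and that 61% of its genes were higher.

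The inducers of these chemokines, their transcription factors and the regulators of their mRNA were followed through 4 further lists. Of 11 cytokines that induce chemokines in keratinocytes, 3 were in the table and higher. IL1B, an interleukin-1 that is released by activated cells, had log2 signals of 7.24, 7.46 and 7.34 in control and 9.75, 9.60 and 9.40 with M1 protein. The groups were clearly apart, and the difference of 2.24 ± 0.10 (SE) was 4.72-fold. IL1A, the interleukin-1 stored in keratinocytes, was 1.75 ± 0.07 (SE) higher on the log2 scale, and IL36G, an epithelial member of the same family, 1.32 ± 0.09 (SE) higher.

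Of 15 NF-kappaB subunits and inhibitors, 5 were in the table, all higher, with a median log2 difference of 0.94. The 0.86 of the whole table includes its lower genes, so it is no like baseline for this list. TNFAIP3, which encodes the inhibitor A20, stood out, with log2 signals of 9.20, 9.33 and 9.24 in control and 12.73, 12.67 and 12.57 with M1 protein. Its 10.6-fold difference was about that of CXCL1, and its replicates lay closer together. The subunit genes REL (1.29 ± 0.08 SE) and NFKB1 (0.94 ± 0.07 SE) and the nuclear cofactor gene BCL3 (0.78 ± 0.06 SE) had smaller log2 differences than any of the chemokines.

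Of 13 AP-1 and C/EBP factors, 8 were in the table, all higher, with a median log2 difference of 1.70. FOSB (2.87 ± 0.06 SE), ATF3 (2.59 ± 0.07 SE), FOS (2.53 ± 0.11 SE) and JUN (2.07 ± 0.07 SE) led them, each of them between CXCL3 and CXCL1 in size. Of 13 regulators of AU-rich mRNA decay, 3 were in the table, all higher. ZFP36, which encodes tristetraprolin, a protein that hastens the decay of short-lived cytokine and chemokine mRNAs, had log2 signals of 10.50, 10.44 and 10.34 in control and 12.68, 12.63 and 12.50 with M1 protein. The groups did not overlap, and the difference was 2.18 ± 0.07 (SE), or 4.52-fold. Its relatives ZFP36L2 (1.56 ± 0.06 SE) and ZFP36L1 (1.44 ± 0.07 SE) lay near CXCL3 in size.

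**Figure D5:**
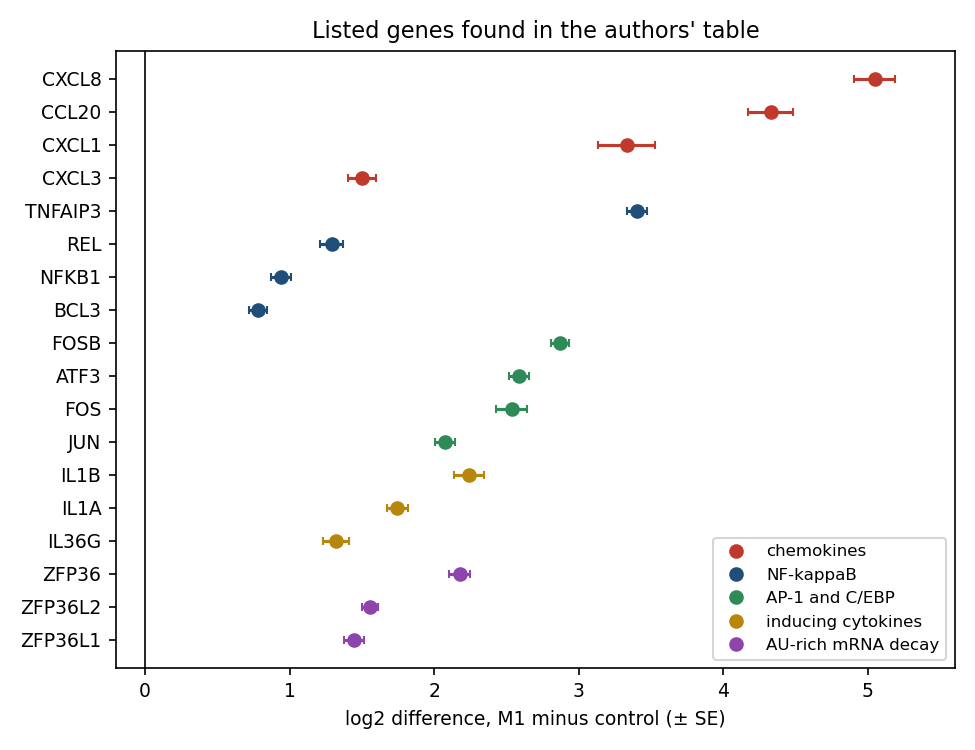
Log2 difference between M1 and control means (x axis, points, with bars for ± SE) for the listed genes in the authors' table, at most 4 per list, coloured by list. CXCL8 and CCL20 exceed every other gene shown, TNFAIP3 lies beside CXCL1, and CXCL3 lies among the decay regulators ZFP36L2 and ZFP36L1.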

How the data were processed

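RNA of 3 control and 3 M1 samples was measured on 6 arrays, grouped and numbered by their titles. The deposited log2 signals, 1 per probe set and array, were made with RMA in Affymetrix Expression Console 1.1.2, per the submitters' processing notes. How these 22119 probe sets were drawn from the array is not stated. Per the file headers, the authors' table of 497 probe sets adds a SAM score, a fold change as a ratio of unlogged means, a q-value and a t-test p-value; its signals were identical to the value table. Names were updated by accession against RefSeq GRCh38.p14 (476 of 497 matched, 46 changed, 21 kept). Each chemokine gene had 1 probe set among the 497 named ones. Whether unnamed probe sets also measure these genes could not be checked. All probe sets were fitted with limma 3.58.1 in R 4.3.3, without a filter, two-sided, with Benjamini-Hochberg adjustment; printed SEs are its moderated ones unless stated. The fit was tested on simulated data. The number of arrays limits the precision. Named genes were the 4 chemokines, up to 4 members of each list and the 3 nearest profiles per chemokine. Pearson's r is not given, since the arrays form separate groups. Promoter windows were aligned globally with Biopython 1.88. The genes, lists and motifs were chosen with earlier results of these data known. The p-values behind the calls measure only the spread between these samples.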

Additional observations from a re-analysis of the deposited data

How the results depend on the processing

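The alternatives were quantile normalization, median centring, the ratio of unlogged means and leaving out each sample in turn; for the counts of calls also the replicate number as a block, an intensity trend in the variance prior and a filter at the 25th percentile of signal. Each of the 36 recomputed differences of the 4 chemokine genes stayed within 1 pooled SD of the value reported, which the 24 values with a sample left out could not exceed by construction. They ranged from 4.93 to 5.18 for CXCL8, 4.22 to 4.49 for CCL20, 3.15 to 3.50 for CXCL1 and 1.42 to 1.56 for CXCL3, and their order was the same in all 9 settings. As the groups do not overlap, leaving out a sample could not turn a direction. The share of calls that were higher was 35.3% as deposited, 42.9% after quantile normalization and 49.4% after median centring. With the replicate number as a block, 5821 probe sets were called in place of 7245 (2047 higher, 3774 lower). The labels state no pairing, so the numbers were not taken to pair the samples. Deviations of same-numbered samples correlated at -0.12, -0.12 and -0.0011, which does not settle whether they were paired. Without each sample in turn, 5386 to 6763 were called. Added after the data were seen, the lowest array of each group was the same for all 4 genes after centring and after quantile normalization. The mean over several probe sets was not run, as each gene had 1 named probe set. Low signal limits the folds of CXCL1, CXCL3 and CCL20.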
